A study of Homo sapiens with 4 samples.

Results

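The m6A peaks of the collagen, laminin and integrin genes of MDA-MB-231 cells were examined. Members were the protein-coding genes whose symbol is COL, a number, A and a number (collagen chains), LAMA, LAMB or LAMC with a number (laminin chains), or ITGA or ITGB followed by further letters or digits (integrin subunits). The rule took 86 of 20052 protein-coding genes, of which 44 were collagen, 12 laminin and 30 integrin genes, and it used no measured value. 4 of the 30 integrin symbols, ITGB1BP1, ITGB1BP2, ITGB3BP and ITGBL1, name proteins that are not integrin subunits, so 26 subunits remained.

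MDA-MB-231 is an established line of triple negative breast cancer cells. In m6A-seq, poly(A) RNA is fragmented and pulled down with an anti-m6A antibody (IP), and stretches with more reads in IP than in input RNA are called as peaks. There were 4 libraries, 2 input and 2 IP, and all 4 carried the label shNS. The treatment field of both IP libraries named YTHDC1, an m6A reader protein, whereas their titles and protocol described an anti-m6A antibody, and the latter was used.

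The deposited list held 20261 peaks of 10140 gene IDs, called over all 4 libraries together, with 1 score per peak and no value for a single library. The score was taken for the caller's p-value, although the header does not exclude an FDR. A peak with a smaller score is called stronger here, and a score of 0 is one too small to be stored. Such a score also depends on read numbers, so strong and weak describe the score and not the degree of methylation. Without a value per library, no difference could be set against the spread between replicates and no test was made. Depth is unknown. Intervals are 95% Wilson intervals, which cover counting error only and treat genes or peaks as independent, although peaks of 1 gene share their transcript. The list holds no read counts, so a gene without m6A and a gene with little RNA in these cells cannot be told apart by the lack of a peak.

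N6-methyladenosine is set on adenosines of mRNA within a short motif and is most often found near stop codons and in 3′ untranslated regions, where reader proteins bind it. Collagens are matrix proteins of 3 chains wound into a triple helix. Laminins are trimers of an alpha, a beta and a gamma chain in basement membranes. Integrins are alpha and beta pairs on the cell surface, and some of them bind collagens or laminins. The helix of a collagen is a repeat of Gly-X-Y, with glycine at each turn, so 1 repeat takes 9 coding bases.

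At least 1 peak was listed for 22 of the 44 collagen genes, or 50.0% (35.8 to 64.2). The laminin share was 7 of 12, or 58.3% (32.0 to 80.7), and the integrin share was 13 of 30, or 43.3% (27.4 to 60.8). Of all protein-coding genes 40.8% had a peak, a value inside the interval of each family. The 3 family intervals also overlapped each other. Over the 86 members the count was 42, or 48.8% (38.6 to 59.2), and over the 26 integrin subunits it was 11, or 42.3%. For comparison with another large group of adhesion proteins, 24 of 110 cadherin superfamily genes had a peak, or 21.8% (15.1 to 30.4). The groups differ in strand, and most peaks of the list were on the minus strand. Among genes with a strand in the promoter table, 25.9% of cadherin genes and 61.3% of members were on the minus strand. There 12 of 22 cadherin genes (54.5%) and 24 of 38 members (63.2%) had a peak, beside 55.6% of all protein-coding genes. On the plus strand the counts were 6 of 63 (9.52%) and 7 of 24 (29.2%), beside 29.3%. Only 62 of the 86 members have a strand in that table, and the 3 plus-strand integrin genes with a peak do not. These counts are therefore too incomplete to compare the groups by strand.

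Strong peaks were a smaller part. A peak scored at or under the median of the list, 5.2e-08, was present in 10 collagen genes (22.7%, 12.8 to 37.0), 4 laminin genes (33.3%) and 5 integrin genes (16.7%, 7.34 to 33.6), beside 26.6% of all protein-coding genes. Of the 42 members with a peak, 45.2% had one this strong, beside 65.2% of all protein-coding genes with a peak. Split by strand, the plus-strand members with a peak were at 46.2% beside 41.5% of all plus-strand protein-coding genes with a peak. The minus-strand members with a peak were at 44.8% beside 78.0% of all minus-strand ones with a peak. The median of the gene's strongest −log10 score was 6.23 in collagens, 20.5 in laminins and 5.52 in integrins, beside 14.6 in all protein-coding genes with a peak. That background was 6.0 on the plus and 31.1 on the minus strand, where the members were at 5.64 and 6.82 and the 5 minus-strand laminin genes at 20.5. Members were long genes, and their median span from transcript start to end was 89.3 kb beside 24.1 kb for all protein-coding genes. Among collagens the genes with a peak had a median span of 158 kb and those without one of 133 kb, whereas in laminins and integrins the genes with a peak were the shorter ones (72.7 against 176 kb and 42.9 against 81.7 kb).

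**Figure D1:**
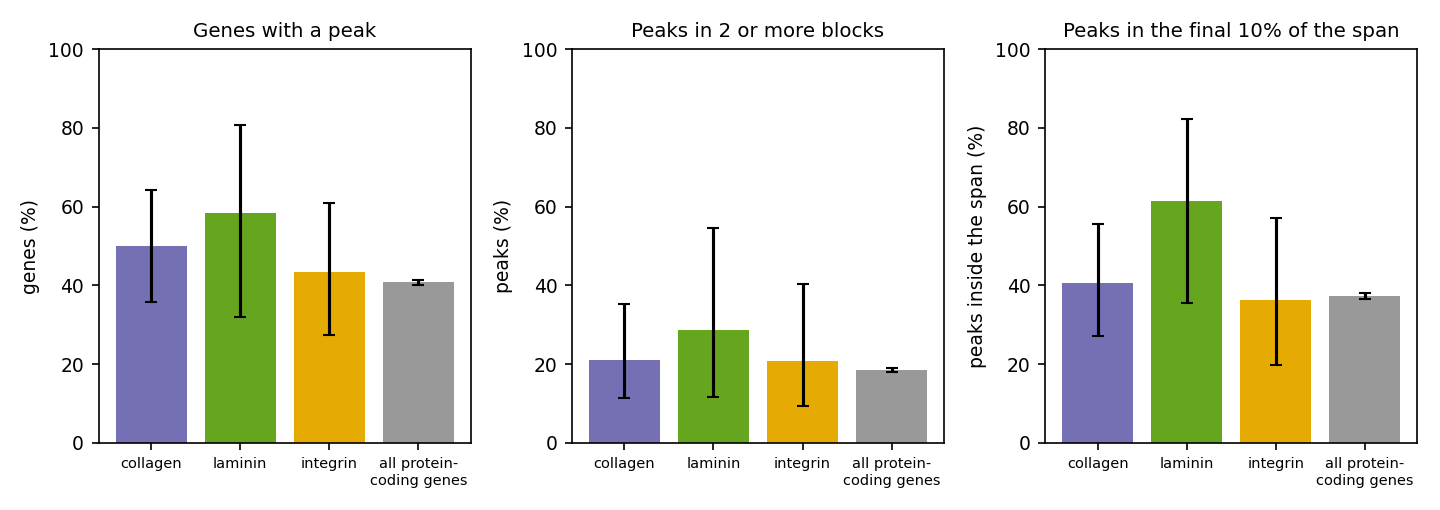
Share of genes with a peak, share of peaks in 2 or more blocks and share of peaks at the 3′ end (final 10% of the span), in percent, for the 3 families and all protein-coding genes. Bars are shares and error bars are 95% Wilson intervals; in each panel the value of all protein-coding genes lies within the interval of every family.

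The fibrillar collagens, which form the striated fibers of connective tissue, had a peak in 6 of 11 genes. COL2A1 (ENSG00000139219.19), the chain of cartilage collagen II, carried the strongest collagen peak, with a score of 1e-239 over 479 spliced bases at chr12:47973116-47974129 (hg38, minus strand). It lay at 98.0% of the gene span, and 10.4% of minus-strand genes with a peak had a peak as strong. COL1A1 (ENSG00000108821.13), 1 of the 2 chains of collagen I, had 1 peak of 270 bases at 92.6% of the span, with a score of 7.9e-37. COL1A2, which supplies the partner chain of collagen I, had no peak. COL5A2, a chain of the fibril-regulating collagen V, had 1 weak peak near its 3′ end (1e-04), and its neighbor on the opposite strand, COL3A1, had none. COL5A1 had 1 of 0.00091. COL24A1 had 3 peaks between 0.58% and 7.36% of its span, all scored above 1e-04, and COL27A1 had 1 near each end. COL11A1, COL11A2 and COL5A3 had no peak.

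The network and filament collagens ranged from 7.9e-33 to no peak. COL4A1 and COL4A2, the main collagen IV chains of basement membranes, lie side by side on opposite strands, and COL4A1 had a single 61-base peak with a score of 0.0032 whereas COL4A2 had none. COL4A4 (0.0013) and COL4A6 (strongest 8.3e-05) were also weak, and COL4A3 and COL4A5 had no peak. COL4A1, COL4A4 and COL4A6 are on the minus strand. COL4A2, COL4A3 and COL4A5 are on the plus strand, where fewer genes of the whole list had a peak. A gene difference and the list's strand inequality cannot be told apart here. Of the collagen VI genes, which form beaded filaments around cells, COL6A1 (ENSG00000142156.15) was the strongest at 7.9e-33, and 11.8% of plus-strand genes with a peak had a peak as strong. COL6A2 had 3 peaks (strongest 2.3e-06) and COL6A3 had 2 (1.5e-07 and 0.0044). COL6A5 and COL6A6 had none. COL8A1, a short chain collagen of vessel and eye basement membranes, had 1 peak of 330 bases at 97.1% of its span with a score of 2e-26, and COL8A2 had 1 at 93.7% (4.6e-05).

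COL7A1 (ENSG00000114270.17), which forms the anchoring fibrils under the epidermis, had 4 peaks, the most of any collagen, and the strongest scored 4e-16. Among the fibril-associated collagens 2 of 10 had a peak. COL9A2 (ENSG00000049089.15), a collagen IX chain, had 3, with a 629-base peak of 2.5e-36 at 98.0% of the span, one of 1.6e-16 at 78.8% and one of 0.00076 at 7.62%. COL12A1 had 2 weak ones (1.2e-05 and 0.0019). The other 8 fibril-associated genes, COL9A1, COL9A3, COL14A1, COL16A1, COL19A1, COL20A1, COL21A1 and COL22A1, had none. Of the transmembrane collagens 3 of 4 had a peak, led by COL13A1 with a 360-base peak over its 5′ end (2e-22), COL23A1 with a 745-base peak at its 3′ end (1e-13) and COL25A1 with one at 99.0% of the span (1e-11). COL17A1, the hemidesmosome collagen, had none. COL18A1, the source of endostatin, had 3 peaks, and its last one of 838 bases (1.6e-16) shared 227 and 511 bases with 2 minus-strand peaks of the neighboring folate carrier gene SLC19A1 (8.1e-07 and 1e-15). COL26A1 had a single peak of 4.6e-05 at its 5′ end. No peak was listed for COL10A1, COL15A1 or COL28A1, the remaining collagens.

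**Figure D2:**
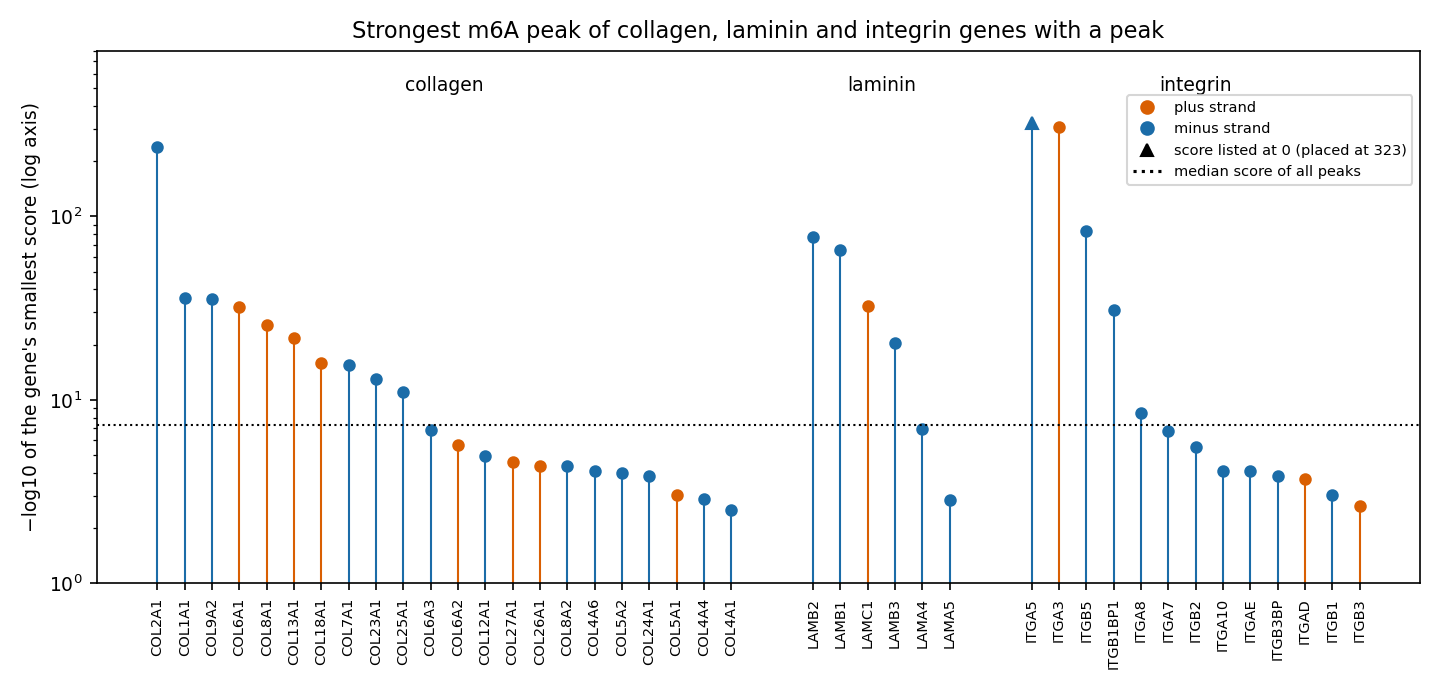
−log10 of the smallest score (log axis) of the reported member genes with a peak, sorted within family, with color for strand. COL2A1, ITGA3 and ITGA5 stand above 200, ITGA5 is placed at 323 because its score is listed at 0, and 19 genes lie above the dotted line at the list median score of 5.2e-08.

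Laminin beta chains held most laminin peaks. LAMB1, LAMB2 and LAMB3 had 8 of the 14, and LAMB4 had none. LAMB2 (ENSG00000172037.14), the beta chain of neuromuscular and kidney basement membranes, had 4 peaks, with scores of 7.9e-78 at its 5′ end, then 2.5e-23, 3.2e-66 and 6.6e-05 at 86.1%, 91.2% and 97.7% of the span. LAMB1 (ENSG00000091136.14), the beta chain of the widespread laminin of early basement membranes, had 2 peaks, at 81.3% (2.5e-66) and 98.1% (0.0017) of the span. LAMB3, a chain of the epidermal anchoring laminin 332, had 2 peaks at its 3′ end (3.2e-21 and 4e-09). LAMA3, which supplies the alpha chain of this laminin, lies on the plus strand, unlike LAMB3, and had no peak. LAMC1, the most widely used gamma chain, had a 271-base peak of 3.2e-33 at 97.7% of its span and a weak one at its 5′ end (0.0017). The alpha chains were weak or without a peak, with 1.2e-07 and 0.0013 in LAMA4, 0.0014 in LAMA5 and none in LAMA1 and LAMA2. LAMC3 also had none.

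Integrin peaks ranged in score from 0 to 0.0043. ITGA5 (ENSG00000161638.11), the alpha chain of the fibronectin receptor, had an 808-base peak with a score of 0 at chr12:54395560-54396367 (minus strand), followed by a 240-base peak of 5e-54, and a 5′ peak of 7.9e-13. ITGA3 (ENSG00000005884.18), the alpha chain of a laminin receptor, had a 660-base peak of 1e-308 at 98.3% of the span, and 1.01% of plus-strand genes with a peak had a peak as strong. Its 5′ peak scored 5e-18. ITGA7, another laminin-binding chain, had 1 peak (1.7e-07), and ITGA6 had none. ITGA8 had 3 peaks (strongest 3.8e-09). Of the collagen-binding alpha chains ITGA10 had 2 weak peaks (7.9e-05 and 0.00015), and ITGA1, ITGA2 and ITGA11 had none. No peak was listed for ITGAV or ITGA2B, which with ITGA5 and ITGA8 bind the RGD motif, nor for ITGA4 and ITGA9.

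ITGB5 (ENSG00000082781.12), the beta chain that pairs with the alpha V chain, led the beta subunits with peaks of 5e-25, 1.6e-83 and 3.2e-17 at 10.0%, 75.2% and 98.8% of its span. ITGB1, the beta chain shared by most matrix receptors, had 1 weak peak of 0.00098 at 38.8%. ITGB2, the leukocyte beta chain, had peaks near both ends (0.0012 and 3e-06), and the 5′ one shared 91 bases with a peak of the antisense gene ITGB2-AS1 (0.00055). ITGB3 had 1 peak of 0.0023 that shared 58 bases with a peak of equal score of the same-strand gene ENSG00000259753, so it cannot be told to which gene it belongs. ITGB4, ITGB6, ITGB7 and ITGB8 had none. Of the leukocyte alpha chains ITGAD had 1 peak (2e-04), and ITGAE had 2 (7.9e-05 and 0.0043), of which the first overlapped a HASPIN peak on the plus strand (2.2e-07) by 39 bases. ITGAL, ITGAM and ITGAX had none. Beyond the subunits, ITGB1BP1, which binds the tail of the beta 1 chain, had peaks of 2e-31 and 2e-07, and ITGB3BP had 1 of 0.00014, while ITGB1BP2 and ITGBL1 had none.

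Peaks per gene differed little between families. Collagen genes with a peak had 1.95 ± 0.899 peaks (mean ± SD over 22 genes), laminin genes 2.0 ± 1.0 (7 genes) and integrin genes 1.85 ± 0.801 (13 genes), beside 2.10 ± 1.50 over 8173 protein-coding genes. The differences between families were smaller than the spread among genes of each. The most in any member was 4 (COL7A1 and LAMB2), and 10 members had 3 or more, which is 23.8% of members with a peak beside 27.9% of all protein-coding genes with a peak. Cadherin superfamily genes with a peak had 3.71 ± 3.53.

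The strands were unequal, in the members and in the whole list. Of the 81 member peaks 59 were on the minus strand, or 72.8% (62.3 to 81.3), beside 72.2% of all peaks of protein-coding genes. The minus-strand share was 65.1% (50.2 to 77.6) in collagens, 78.6% (52.4 to 92.4) in laminins and 83.3% (64.1 to 93.3) in integrins. Genes with a peak numbered 8 plus and 14 minus in collagens, 2 and 5 in laminins and 3 and 10 in integrins. Per gene with a peak, collagens had 1.88 ± 0.835 peaks on the plus and 2.0 ± 0.961 on the minus strand, and integrins had 1.33 ± 0.577 and 2.0 ± 0.816, beside 1.66 ± 1.06 and 2.33 ± 1.64 in all protein-coding genes. The 2 plus-strand laminin genes had 1.5 on average and the 5 minus-strand ones 2.2. The cause of the list's strand inequality was not tested.

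For the share of genes with a peak by strand, the promoter table gave a strand for 62 of the 86 members (72.1%), too few for a comparison over the entries alone, which is void. Among those entries 7 of 24 plus-strand members had a peak, beside 29.3% of all plus-strand protein-coding entries, and 24 of 38 minus-strand members, or 63.2%, beside 55.6%. The 3 plus-strand integrin genes with a peak, ITGA3, ITGAD and ITGB3, had no entry. For 13 members without a peak no strand was found. Placing all of them on 1 strand or the other, the share lay between 30.2% and 43.3% on the plus strand and between 51.8% and 67.4% on the minus strand. These bounds did not overlap, nor did those of laminins (33.3% to 50.0% and 62.5% to 83.3%) and integrins (18.8% to 25.0% and 55.6% to 71.4%), while those of collagens did (38.1% to 57.1% and 46.7% to 60.9%). The same bounds over all protein-coding genes were 25.4% to 33.4% and 46.3% to 60.6%. All these bounds show only where genes of unknown strand could fall and include no counting error. Those of laminins rest on 2 plus-strand and 5 minus-strand genes with a peak, and those of integrins on 3 and 10. A lack of overlap therefore does not separate the strands within a family.

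A peak that runs over exon junctions is listed as several blocks, and 9 of 43 collagen peaks had 2 or more, or 20.9% (11.4 to 35.2). The shares were 4 of 14 in laminins, or 28.6% (11.7 to 54.6), and 5 of 24 in integrins, or 20.8% (9.24 to 40.5), beside 18.5% of all peaks of protein-coding genes. With only peaks at or under the list median score the collagen share was 4 of 11, or 36.4%, beside 24.6% of all such peaks. By strand 4 of the plus-strand member peaks (18.2%) and 14 of the minus-strand ones (23.7%) had several blocks, beside 13.8% and 20.3% of all. The collagen peaks with several blocks were cut more finely. 7 of the 9 had 3 or more blocks (77.8%), beside 25.0% of all peaks of protein-coding genes with several blocks. Of these 7 peaks 3 were of COL7A1. Over all peaks the shares were 16.3% in collagens and 4.62% in protein-coding genes. Laminins and integrins had 1 such peak each. The most blocks in any peak of a protein-coding gene was 11, and a COL6A1 peak had that many. All 4 laminin peaks with several blocks were of beta chains.

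The blocks between the first and the last of such a peak run from 1 exon junction to the next. Their lengths come from the annotation's exons, and the peak calls decide only which exons are seen. In COL6A1 the 11 blocks of the 508-base peak at chr21:45989612-45994201 (plus strand, 43.5% of the span) were 41, 27, 27, 45, 54, 63, 63, 54, 36, 63 and 35 bases long from 5′ to 3′. The 9 lengths between the ends are each a multiple of 9, the coding length of 1 Gly-X-Y repeat. The bases of the blocks were not read, so which repeats they code for was not tested. In COL6A2 the 6 blocks of a 331-base peak were 10, 63, 63, 90, 63 and 42 bases, again with only multiples of 9 between the ends. In COL9A2 the 6 blocks of the 300-base peak of 1.6e-16 were 37, 72, 36, 45, 33 and 77 bases. Here the 33-base block was the exception. The 3 multi-block peaks of COL7A1 lay at 50.5%, 81.6% and 88.7% of its span and had 3, 5 and 4 blocks, with scores of 1.7e-04, 4e-16 and 3.2e-07. COL18A1 had a peak of 4 blocks of 36, 72, 36 and 37 bases (6.3e-06).

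**Figure D3:**
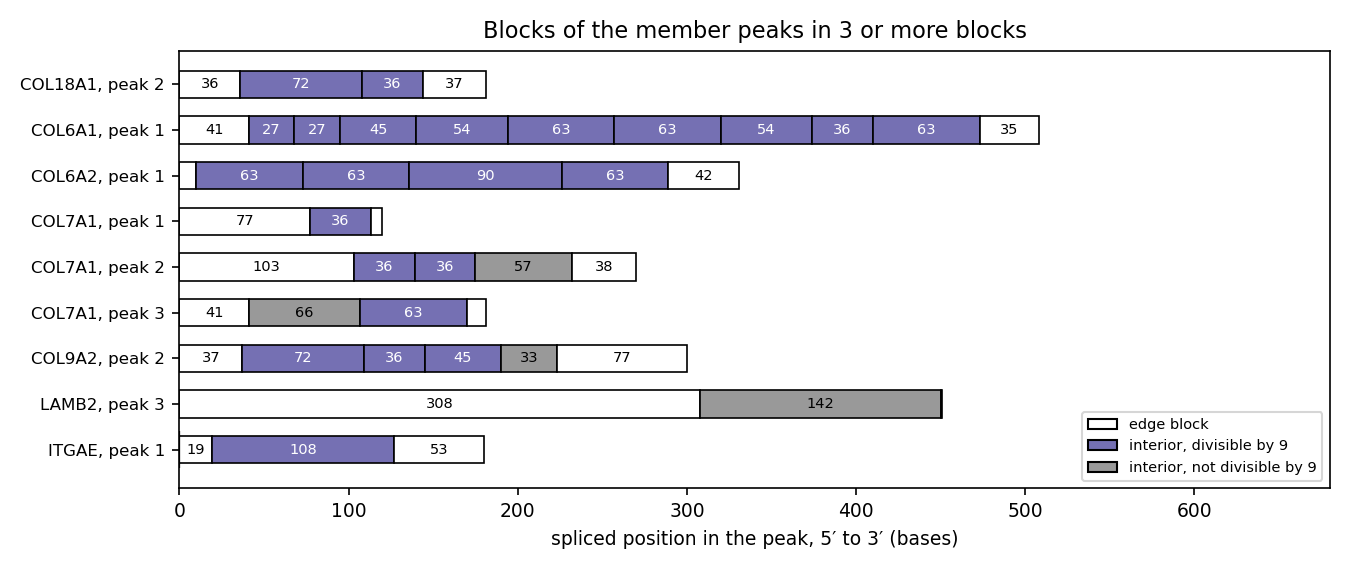
Blocks of the 9 member peaks with 3 or more blocks, drawn end to end in spliced order (x axis, bases from the 5′ end of the peak), with interior blocks filled by whether their length is divisible by 9. Numbers give block lengths in bases; 22 of the 25 interior collagen blocks are divisible by 9, and the exceptions are 66 and 57 bases in COL7A1 and 33 bases in COL9A2.

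Over the 5 collagen genes with such blocks, 22 of 25 interior blocks had a length divisible by 9, or 88.0% (70.0 to 95.8, with blocks of 1 gene counted as independent), and 25 of 25 were divisible by 3. In protein-coding genes outside the families 126 of 1080 interior blocks were divisible by 9, or 11.7% (9.89 to 13.7), and 38.0% were divisible by 3. The median interior block was 54 bases in collagens, with a range of 27 to 90, and 109 bases outside the families. The single laminin interior block, in LAMB2, was 142 bases, and the single integrin one, in ITGAE, was 108 bases, which is divisible by 9.

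**Figure D4:**
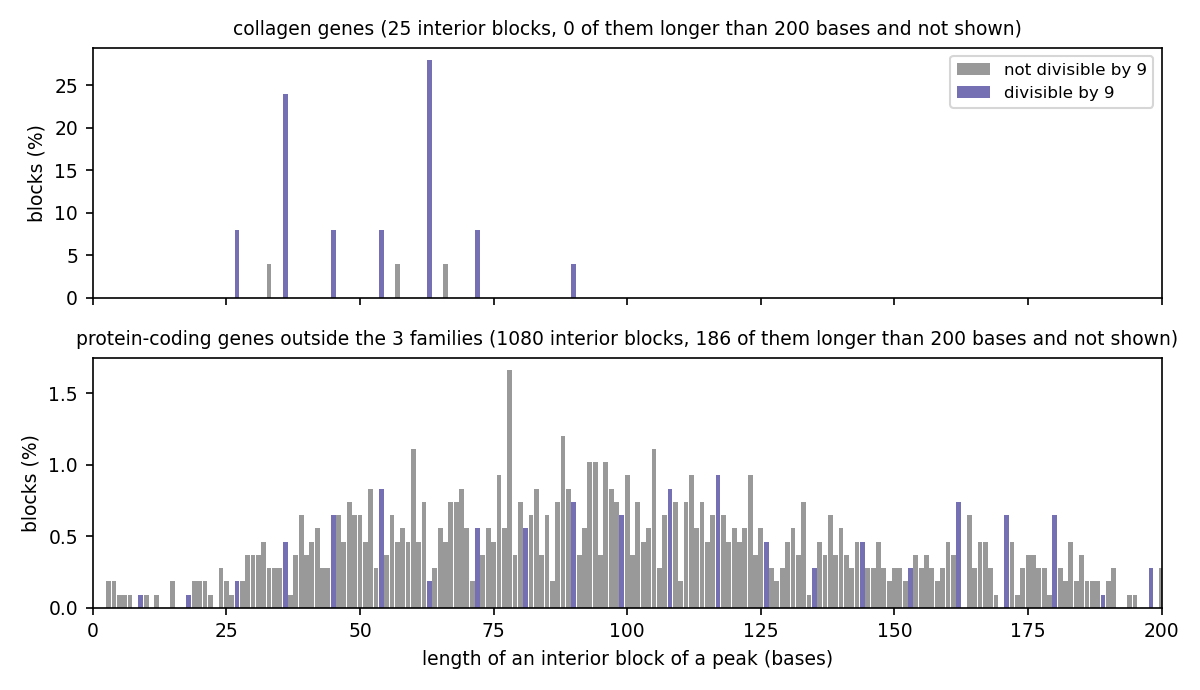
Share of interior blocks (percent) at each length in bases, for collagen genes (top) and for protein-coding genes outside the 3 families (bottom), with lengths divisible by 9 in purple; the y axes differ. Collagen blocks stand on multiples of 9 between 27 and 90 bases except for 3 blocks, while the blocks of other genes spread over all lengths with a median of 109 bases.

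Position was measured as the midpoint of a peak along the span of its gene, from 0% at the 5′ end to 100% at the 3′ end, for peaks wholly inside the span. In collagens 17 of 42 such peaks lay in the final 10%, or 40.5% (27.0 to 55.5), in laminins 8 of 13, or 61.5% (35.5 to 82.3), and in integrins 8 of 22, or 36.4% (19.7 to 57.0). Of all peaks of protein-coding genes 37.4% lay there, within the interval of each family. With only peaks at or under the list median score the collagen share was 7 of 10, or 70.0%, beside 38.8% of all such peaks. By strand the collagen counts were 7 of 14 on the plus strand (50.0%) and 10 of 28 on the minus strand (35.7%), the laminin counts were 1 of 3 and 7 of 10, and the integrin counts were 1 of 3 and 7 of 19 (36.8%), beside 36.4% and 37.8% of all. The median distance to the 3′ end was 8092 bases in collagens, 1318 bases in laminins and 10395 bases in integrins, beside 4050 bases overall. Span includes introns, so these are genomic distances. Of the peaks in 2 or more blocks, 8 of 9 in collagens, 5 of 5 in integrins and 1 of 4 in laminins lay outside the final 10%, beside 83.0% of such peaks inside the span of all protein-coding genes.

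**Figure D5:**
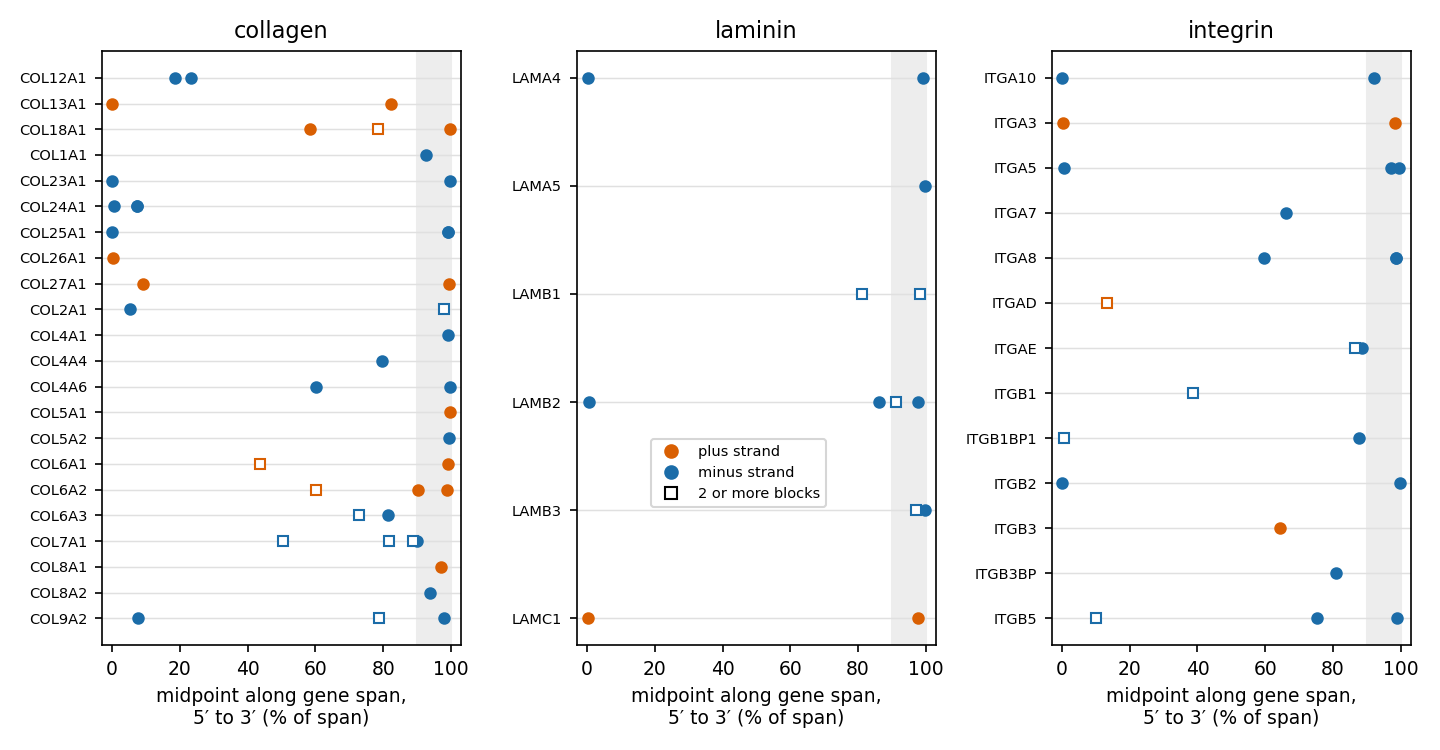
Midpoint of the peaks of the reported members along the span of their gene (x axis, percent, 5′ to 3′), 1 row per gene, with color for strand and open squares for peaks in 2 or more blocks. The gray band is the final 10%; the collagen squares lie between 40% and 90% of the span except for COL2A1, and 12 genes have a point at both ends.

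Of the 27 members with 2 or more peaks, 12 had 1 in the first and 1 in the final 10% of the span, or 44.4%, beside 21.1% of the 4491 protein-coding genes with 2 or more peaks. These genes were COL2A1, COL9A2, COL23A1, COL25A1, COL27A1, LAMA4, LAMB2, LAMC1, ITGA3, ITGA5, ITGA10 and ITGB2. This count was chosen after the values were seen, it includes 3 genes whose 5′ peak ran past the end of the span, and it has no test. The 10% windows also grow with the span, whose median was 89.3 kb over all members beside 24.1 kb over all protein-coding genes. The effect of span on this count was not tested. In the first 10% lay 14 of 77 member peaks inside the span (18.2%), beside 12.4% of all.

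At 7 of the 62 members with an entry in the RefSeq promoter table a peak shared bases with the first 50 transcribed bases, beside 8.07% of all protein-coding genes with an entry. They were LAMB2 (7.9e-78), COL13A1 (2e-22), ITGA5 (7.9e-13), LAMA4 (1.2e-07), ITGB1BP1 (2e-07), ITGA10 (7.9e-05) and COL23A1 (1.4e-04). These 50 bases were searched on both strands for GGAC, a common core of the m6A motif. On the transcript strand 4 of the 7 held it, as did 16 of the 55 other members (29.1%) and 19.7% of all protein-coding entries. On the opposite strand 14 of the 62 members (22.6%) and 19.2% of all protein-coding entries held it. The sites under these 5′ peaks are shown because they place the motif letters inside a peak, with GGAC in capitals, 5′ to 3′ on the minus strand (RefSeq, GRCh38.p14). A match is not an m6A site.
LAMB2 chr3:49133026-49133045: aagtcgctGGACtctaagct
LAMB2 chr3:49133007-49133026: tgtcggagGGACcgctggac
LAMB2 chr3:49133001-49133018: ggaccgctGGACagacct
ITGA10 chr1:145910036-145910055: aggccagaGGACttctcata
ITGA10 chr1:145910022-145910041: ctcatactGGACagaaaccg
LAMA4 chr6:112254543-112254562: ggaagccaGGACagcgcagt
ITGB1BP1 chr2:9423493-9423512: ggcccggcGGACgtgggcag

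LAMB2 held GGAC 3 times within 50 bases, with the G at 14, 33 and 41 bases from the start site, and the last 2 stretches overlap. ITGA10 held GGAC at 4 and 18 bases, LAMA4 at 14 and ITGB1BP1 at 25. In ITGB1BP1 the next base was G, so this site falls outside RRACH, the m6A motif that the study names (H is any base but G). COL13A1, COL23A1 and ITGA5 did not hold these letters in the window.

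Genes that work with these families were counted from lists of other matrix and adhesion genes. Of 14 other matrix proteins 11 had a peak, led by the basement membrane proteoglycans HSPG2 (1e-154) and AGRN (5e-51) and the laminin linker NID1 (2.5e-46), while FN1, FBLN1 and VTN had none. Of 17 collagen processing and matrix remodeling genes 15 had one, with TIMP2, a metalloproteinase inhibitor (0), PLOD2, a lysyl hydroxylase (1e-103), and COLGALT1, a collagen galactosyltransferase (1e-81), the strongest, while P4HA1 and MMP2 had none. Of 7 other matrix receptors 4 had one, led by the syndecans SDC1 (1e-136) and SDC4 (2.5e-76) and by dystroglycan DAG1 (4e-21), and DDR1, DDR2 and CD44 had none. Of 18 genes that link integrins to the cytoskeleton 13 had one, led by the cytolinkers PLEC (0) and DST (1e-250) and the actin crosslinker ACTN1 (1e-186), while VCL, ILK, FERMT3, ZYX and ACTN4 had none. Together 43 of 56 had a peak, beside 40.8% of all protein-coding genes. At or under the list median score 33 of the 56 had one, beside 26.6%. These lists were made of well-known genes, so their counts say nothing of the families themselves.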

How the data were processed

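m6A-seq of MDA-MB-231 cells comprised 2 input and 2 IP libraries (KAPA stranded kit), described in the study as biological replicates. The authors mapped reads with STAR to GENCODE 33 (hg38) and called peaks with exomePeak 2.16 at default settings. The deposited list gave 1 p-value (score, or possibly an FDR) per peak over all 4 libraries, with blocks for spliced peaks. Here peaks were joined to RefSeq gene spans by Ensembl ID (10103 of 10140 IDs had a symbol), family members were taken by symbol, and shares were given with 95% Wilson intervals (Python 3.11.15, pandas 2.3.3, SciPy 1.17.1). An overlap needed 1 shared base. The overlap code was checked on simulated intervals.

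Members were all accounted for, except 1 that is not reported here and stays in the counts. Named with full values were, per family, the 3 with the smallest score, the 3 with the most peaks, those with a peak of 3 or more blocks, and COL4A1/COL4A2 and COL3A1/COL5A2; of companion genes the 3 with the smallest score were named. The members and lists were chosen with earlier results of these data known. Exon and UTR positions of peaks, protein sequences, library depth and 1 value per library were not analysed here. Alternatives were a score limit, the first part of the list, opposite-strand overlaps removed, merged peaks, integrin subunits only and other 3′ limits.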

Additional observations from a re-analysis of the deposited data

How the results depend on the processing

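No paired analysis was possible because no library has values of its own (each peak has 1 score over all 4), and no library could be left out. With only peaks scored at or under the list median, 5.2e-08, 4 of 17 results moved out of their limits. For shares these limits were the 95% intervals. The collagen share with a peak came to 22.7% and the integrin share to 16.7%, the collagen share of peaks in 2 or more blocks to 36.4%, and the collagen share of peaks in the final 10% of the span to 70.0%. A score limit can only lower a share of genes with a peak, and over all protein-coding genes that share fell from 40.8% to 26.6%. The laminin share with a peak came to 33.3% from 58.3%, inside its wide interval (32.0 to 80.7). The laminin share of interior blocks divisible by 9 rested on 1 block under both settings and could not move. Peaks per gene were held to 1 SD among genes instead, and the collagen mean came to 1.10 from 1.95, within that SD. A mean over genes with a peak cannot fall under 1. The lower limits were 1.06 in collagens, 1.0 in laminins and 1.05 in integrins, so a fall could hardly leave them. The causes were not tested. Using the first part of the list or merging overlapping peaks could not change a member value, since no member peak was in the second part and all 81 remained after merging. Under the remaining settings results stayed within these limits. One, keeping the peaks that run past the span, was chosen after seeing the data.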
